A study of Mus musculus with 4 samples.

Results

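Spliced regions of 2 to 49 bp found by Read-Split-Walk (RSW) in *Ire1*α heterozygous (Het) cells treated with dithiothreitol (Dtt) were examined. RSW splits reads that do not map to the genome or to known exon junctions, maps both parts, and lists the gap between them as a spliced region with its splice length. The regions were chosen by their listed splice length alone, a value read from these same data, and 479 of the 2533 regions in the Dtt list (18.9%) had a length in this range. They fell into 3 length steps, with 363 regions of 2 bp, 79 of 3 to 9 bp and 37 of 10 to 49 bp. At the upper limit, the longest regions inside were those of *Herpud1* and *Lbh* (42 bp), *Clta* (45 bp) and *Vim* (47 bp), and those just outside included *Pfdn1* (51 bp), *Lrrc47* and *Tnip1* (52 bp) and *Midn* (53 bp), all with 2 or 3 supporting reads.

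The Het sample was 1 RNA-Seq library of C57BL/6 mouse embryonic fibroblasts (MEFs) with 1 functional *Ire1*α allele, grown for 4 h in 1 mM Dtt, which reduces disulfide bonds and unfolds proteins in the endoplasmic reticulum (ER). Its partner was 1 library of knockout (KO) MEFs whose null allele lacks the kinase and RNase domains of IRE1α. The methods of the study give the KO cells the same treatment, whereas the sample labels call them untreated. The other experiment of the series, with thapsigargin (Tg, 500 nM, 4 h) and MEFs of a different *Ire1*α deletion, gave a list of 55 regions. No genotype had a replicate in either experiment, the authors had dropped from the list what RSW also found in the KO cells, and the KO columns held no number, so no value below compares Het with KO. The list holds regions and no expression levels, so neither the cell type nor the deletion was checked against marker genes.

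IRE1α is an ER membrane protein with a kinase and an RNase domain that is activated when unfolded proteins accumulate. Its RNase cuts *Xbp1* mRNA at a pair of stem loops outside the usual spliceosome reaction, and the exon parts are then ligated. Removal of the short segment shifts the reading frame and gives the active transcription factor XBP1s, which raises expression of ER chaperones and of genes for ER-associated degradation. A short gap in a transcript can be placed at more than 1 position when the bases at its ends repeat, and the joined sequence is then the same for each placement. The number of bases over which a gap could move in this way on mm9 is called its slide below, and a slide of 4 or more is called a repeat. Where placements between the boundaries differed, the largest slide among them was taken.

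The sequences of the *Xbp1* region and of the other 10 to 49 bp regions in coding sequence with a slide of 4 or more are shown first, because the comparison with *Xbp1* rests on their ends. They are given 5′ to 3′ on the strand of the gene, on mm9, with the bases that occur at both ends of the removed segment in capitals. They came from chr11:5424271-5424322 (*Xbp1*, plus strand), chr15:77594254-77594303 (*Myh9*, minus), chr11:5771733-5771772 (*Aebp1*, plus), chr4:44025687-44025749 (*Clta*, plus), chr2:25794732-25794783 (*Camsap1*, minus), chr3:103819403-103819444 (*Magi3*, minus), chr7:52779701-52779750 (*Ppp1r15a*, minus), chr7:4759837-4759881 (*Ube2s*, minus) and chr8:96916189-96916253 (*Herpud1*, plus).
Xbp1: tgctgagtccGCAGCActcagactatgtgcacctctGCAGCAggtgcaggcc
Myh9: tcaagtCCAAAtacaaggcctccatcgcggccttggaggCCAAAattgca
Aebp1: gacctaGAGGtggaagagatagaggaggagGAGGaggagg
Clta: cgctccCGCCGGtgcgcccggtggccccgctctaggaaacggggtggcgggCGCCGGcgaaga
Camsap1: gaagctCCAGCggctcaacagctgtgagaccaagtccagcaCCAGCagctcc
Magi3: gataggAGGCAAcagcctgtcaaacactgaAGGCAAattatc
Ppp1r15a: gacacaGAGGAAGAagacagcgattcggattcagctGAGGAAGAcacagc
Ube2s: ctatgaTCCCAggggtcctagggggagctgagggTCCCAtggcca
Herpud1: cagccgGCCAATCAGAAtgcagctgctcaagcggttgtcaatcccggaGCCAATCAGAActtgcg
In each of these, the capitals occurred once at the start of the removed segment and once directly after it, so that 1 copy remained in the joined sequence.

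Of the 19 UTR regions of 10 to 49 bp, 9 had direct repeats at their ends, among them both *Tagln2* regions with a copy inside an AG repeat, and 8 lay in microsatellites. The removed segment and the copy after it are shown for 5 of the 9, *Fn1* (fibronectin, chr1:71632462-71632490, minus), *Yap1* (a transcriptional co-activator, chr9:7934144-7934170, minus), *Cdc37* (an Hsp90 co-chaperone, chr9:20944089-20944115, minus), *Tspan3* (a tetraspanin, chr9:56008707-56008725, minus) and *Ywhab* (a 14-3-3 protein, chr2:163820991-163821009, plus), with the repeated bases in capitals.
Fn1: GGAAAcacaggtagccaactaggaGGAAA
Yap1: AACTGAAcacacagactgggAACTGAA
Cdc37: CTCTGCTtcgggttgaggggCTCTGCT
Tspan3: CGCTCggtgagcgcCGCTC
Ywhab: CGCTGCCaccgcCGCTGCC
Each of these regions had 2 supporting reads, and each was chosen for display after its values were seen.

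The number of regions fell from 363 at 2 bp to 45 at 3 bp and 18 at 4 bp. The remaining lengths below 10 bp held 2 regions at 5 bp, 8 at 6 bp, 1 at 7 bp, 2 at 8 bp and 3 at 9 bp. From 10 to 49 bp, 19 lengths had a region and 21 had none, the median length was 24 bp, and no length had more than the 5 regions of 24 bp. The 479 regions lay in 364 genes, of which 313 had 1 region, 31 had 2 and 20 had 3 or more. Of these genes, 85 also had a region of 50 bp or longer.

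**Figure D1:**
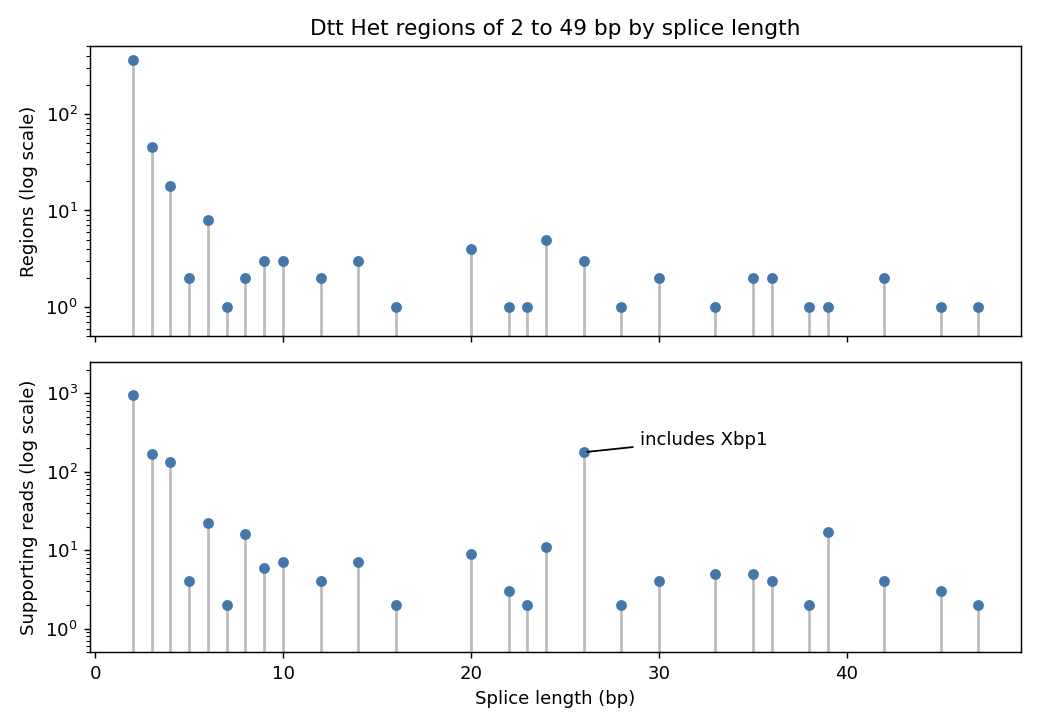
Regions of 2 to 49 bp in the Dtt list by splice length in bp, with the number of regions above and their summed supporting reads in the Het library below, both on log axes. Region numbers drop from 363 at 2 bp to 5 or fewer at every length above 6 bp, and the reads at 26 bp stand apart because they include the 173 reads of *Xbp1*.

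The 479 regions held 1565 of the 6436 supporting reads of the Dtt list (24.3%), with 945 in the 2 bp step, 350 in the 3 to 9 bp step and 270 in the 10 to 49 bp step. The median was 2 reads in each step, which is the minimum for listing, and the maxima were 23, 80 and 173 reads. The limit used here for better support, 3 or more reads, was reached by 78 of 363 regions of 2 bp (21.5%, 95% Wilson interval 17.6 to 26), 19 of 79 of 3 to 9 bp (24.1%, 16.0 to 34.5) and 10 of 37 of 10 to 49 bp (27%, 15.4 to 43), against 23.6% of the whole Dtt list. Two-sided Fisher's exact tests found no pair of steps past the threshold, with odds ratios of 0.864 for 2 against 3 to 9 bp (adjusted p = 0.746), 0.739 for 2 against 10 to 49 bp (adjusted p = 0.681) and 0.855 for 3 to 9 against 10 to 49 bp (adjusted p = 0.819). For all 479 regions against the 2054 longer ones, the share was 22.3% against 23.9% (odds ratio 0.916, exact adjusted p = 0.681). With 5 or more reads as the limit, the direction turned and the test was passed (odds ratio 2.78, exact adjusted p = 5.23e-05). The p-values and intervals cover counts of regions and reads in 1 library and no biological spread.

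Of the 18 regions in the Dtt list with 10 or more reads, 15 had a splice length of 2 to 49 bp, and 12 of these 15 lay in a 3′ UTR, against 54.1% of the 479 and 11.7% of the whole list. *Xbp1* (26 bp) had 173 reads. *Rps9*, which encodes a protein of the small ribosomal subunit, had 80 reads at 4 bp, and *1810013L24Rik* had 30 reads at 3 bp. *Sparc*, a secreted collagen-binding glycoprotein, had 23 reads at 2 bp, and *Itpripl2* had 20 reads at 3 bp. These were the 5 regions with at least 20 reads. The list alone does not show whether a gap arose in the RNA or is a difference of the cells' genome from mm9. The study examined genomic DNA at *Rps9*, which was not analysed here, and the 80 reads are not read here as splicing of the RNA.

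The other 10 had 10 to 19 reads. *Wdr89* (3 bp) and *Actb* (β-actin, 2 bp) had 19 reads each, *Poldip3* (39 bp) had 17 and *Col8a1* (a chain of type VIII collagen, 2 bp) had 15. A second *Actb* region (2 bp) and *Capza2* (an actin capping protein, 8 bp) had 14 each. *Maff*, a small Maf transcription factor, had 11 reads at 4 bp. *Igfbp4* (a binding protein of insulin-like growth factors, 2 bp), a second *Sparc* region (2 bp) and *Boc* (a Hedgehog co-receptor, 3 bp) had 10 reads each. Both *Sparc* regions ended at the same base, so their reads came from 1 locus. The region listed under *Wdr89* lay in an exon that GENCODE vM1 gives to *Rplp2-ps1*, and it was placed by position.

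Of these 15, the 4 bp regions of *Rps9* and *Maff* and the 3 bp region of *Itpripl2* had no slide, so that the listed boundaries gave 1 placement. They are shown with *1810013L24Rik*, *Wdr89* and *Boc*, with the removed bases in capitals at the first placement along the gene. Their positions on mm9 were chr7:3658420-3658449 (*Rps9*, plus), chr16:8858075-8858103 (*1810013L24Rik*, plus), chr7:125629294-125629322 (*Itpripl2*, minus), chr12:76732023-76732051 (*Wdr89*, minus), chr15:79189369-79189398 (*Maff*, plus) and chr16:44496534-44496562 (*Boc*, minus).
Rps9: aagaggattaattAATActtggctgaactg
1810013L24Rik: tgccgtgttctgtCTCctctgtccaagtt
Itpripl2: ttgacaaagaggtTCCccccccccccatg
Wdr89: ttctgcccccgctGCAgcagaggagaaga
Maff: taggtttttttttTAAAaaaaaaaaaaaat
Boc: gttaagcccccaaCGTcgtcggtacagcc
The *Itpripl2* bases stood at the start of a run of C and the *Maff* bases where a run of T met a run of A. Each of these 2 loci also had a region of the neighbouring length, 4 bp at *Itpripl2* and 3 bp at *Maff*.

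The listed boundaries of a region can lie farther apart than its splice length, since RSW joins split reads of the same length whose positions differ. The width minus the length had a median of 13 bp in the 2 bp step (quartiles 2 and 33), 9 bp in the 3 to 9 bp step (2 and 22.5) and 7 bp in the 10 to 49 bp step (5 and 13), against 2 bp in the longer regions. The maxima were 108 bp (*Bgn*, biglycan, a matrix proteoglycan), 73 bp and 37 bp (*Poldip3*), against 24 bp in the longer regions. The difference was 0 in 17, 8 and 2 regions and was above 27 bp, the distance over which split reads were joined, in 111, 18 and 2 regions.

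In 284 of the 479 regions, every placement between the boundaries gave the same joined sequence, so the boundaries described 1 junction. In 253 of these 284, the width minus the length equalled the full slide on mm9. The other 195 regions (40.7%) were wider than 1 junction allows, against 8.01% of the whole Dtt list and 8 of the 2054 longer regions (0.389%). By step the share was 177 of 363 (48.8%, 43.7 to 53.9), 15 of 79 (19%, 11.9 to 29) and 3 of 37 (8.11%, 2.80 to 21.3), the last being *Poldip3*, *Plekha3* and *Cdk16*. On mm9, the placements within the boundaries of these wide regions would give a median of 18, 11 and 10 different joined sequences per region and at most 44, 55 and 28. Of the 195, 141 had 2 reads (72.3%), against 372 of all 479 (77.7%). Since length enters the width minus the length, these shares were not tested. Among regions with 3 or more reads, the median width minus length was 31.5 bp in the 2 bp step, 5 bp in the 3 to 9 bp step and 5.5 bp in the 10 to 49 bp step.

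**Figure D2:**
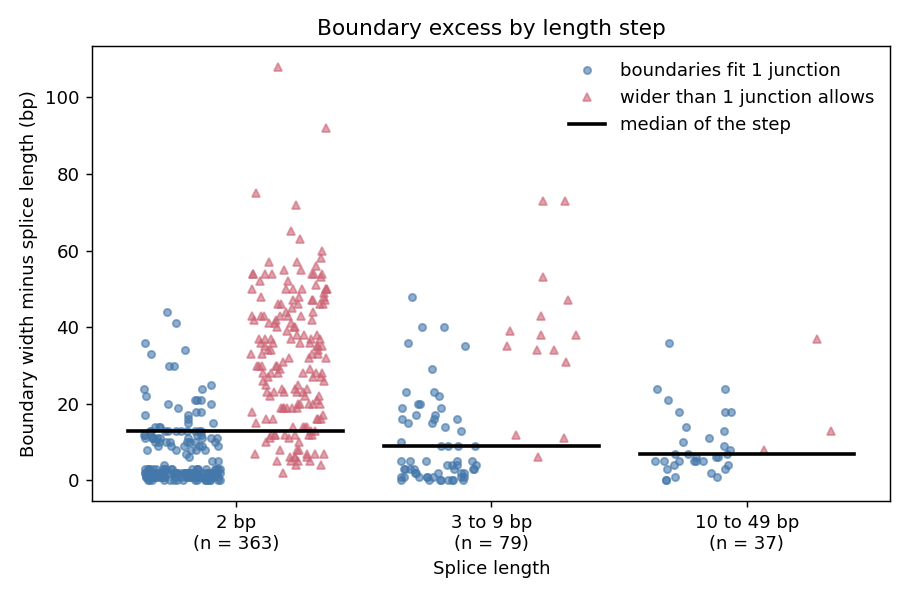
Listed boundary width minus splice length in bp for each Dtt region, by length step. Circles are regions whose boundaries fit 1 junction, triangles are wider ones, black bars are the medians (13, 9 and 7 bp), and points are spread sideways at random. Triangles make up 48.8% of the 2 bp step and 8.11% of the 10 to 49 bp step.

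A slide of 4 or more bases was found for 133 of 363 regions of 2 bp (36.6%), 49 of 79 of 3 to 9 bp (62.0%) and 29 of 37 of 10 to 49 bp (78.4%), against 23.7% of the whole Dtt list and 19% of the longer regions. This order did not hold among regions with 3 or more reads, where the shares were 67.9%, 57.9% and 60%. In the 2 bp step, 77 regions were at a repeat and fitted 1 junction, 56 were at a repeat and wider, 121 were wider without a repeat and 109 were neither. The repeat unit at the 133 regions of 2 bp was AC in 59, A in 47, AG in 17, C in 5, AT in 4 and CG in 1, where each unit stands for all its rotations and both strands. A further 182 regions of 2 bp had a placement beside 1 full copy of the removed pair of bases, and 131 of them had it at the leftmost placement. In the 3 to 9 bp step, 44 regions lay in microsatellites or homopolymers, with AC and AGC as the unit in 9 each. In the 10 to 49 bp step, 19 regions had direct repeats at their ends without being a repeat of short units throughout, and 10 lay in microsatellites or homopolymers. Another 6 slid over 1 to 3 bases and 2 (*Trim30d* and *Vim*) did not slide. The bases between the direct repeats of the 19 were not classed. Among them, both *Tagln2* regions had a copy inside an AG repeat, and the *Aebp1* region ended in GAG repeats.

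Among the regions with many reads in repeats, some fitted 1 junction and others did not. The 15-read region of *Col8a1* lay in an AC repeat over which the gap slid 41 bases, exactly its width minus length. The 14-read region of *Actb* lay in a run of A with a slide of 13, and that of *Capza2* in an AG repeat with a slide of 9, both again equal to the width minus the length. The 19-read region of *Actb*, with a slide of 10, was 36 bp wider than its length, and the placements between its boundaries would give 19 different joined sequences on mm9. The 10-read regions of *Igfbp4* and *Sparc*, with slides of 10 and 14, were 41 and 60 bp wider, with 13 and 32 such sequences. These are possible sequences, and how many occurred in reads was not analysed here.

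By the GENCODE vM1 annotation of the kept bases beside the boundaries, 259 of the 479 regions lay in a 3′ UTR, 10 in a 5′ UTR, 5 in UTRs of both kinds, 166 in coding exons, 18 in non-coding exons, 17 in introns and 4 in no gene. Among the regions with an annotated exon, 274 of 458 (59.8%, 55.3 to 64.2) were in a UTR, against 236 of 2001 longer regions (11.8%) and 20.7% of the whole Dtt list. The two-sided Fisher's exact test of 2 to 49 bp against 50 bp and over was passed (odds ratio 11.1, adjusted p = 6.12e-97). A region counted as coding if either kept base lay in coding sequence of any transcript, even where the other lay in a UTR. Regions that join different exons could thus be called coding from either exon, so this odds ratio does not separate location from extent. The regions also differed in their extent, with 457 of 479 (95.4%) lying within 1 annotated exon against 170 of 2054 longer ones (8.28%). When only regions within 1 exon were compared, the odds ratio was 4.71 (exact adjusted p = 6.55e-15).

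The UTR share was 210 of 352 (59.7%) at 2 bp, 45 of 70 (64.3%) at 3 to 9 bp and 19 of 36 (52.8%) at 10 to 49 bp. The steps were not told apart by the exact test, with an adjusted p of 0.681 for each pair and odds ratios of 0.822, 1.32 and 1.61. Among regions with 3 or more reads only, the UTR share was higher at 2 bp than at 10 to 49 bp (odds ratio 12.9, exact adjusted p = 0.00334). GT-AG ends, those of spliceosomal introns, were found for 2 of the 479 regions (*Vim* and *Aebp1*). Both segments also lay wholly within an exon of some annotated transcript. The share was 91.2% in the longer regions and 74% in the whole list. However, the 363 regions of 2 bp and the 45 of 3 bp are too short to hold both ends and could not be called. In the 10 to 49 bp step, the count was 2 of 37. Both kept bases were in coding sequence of 1 transcript in 124 regions of 2 bp, 23 of 3 to 9 bp and 11 of 10 to 49 bp, against 40.3% of the whole Dtt list.

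**Figure D3:**
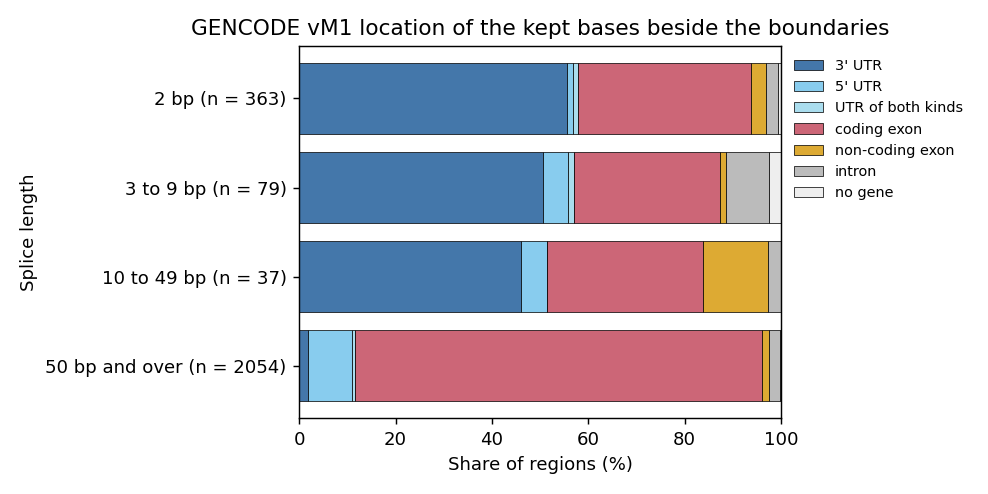
Share of regions in percent by annotated location of the kept bases beside the boundaries, for the 3 length steps and the regions of 50 bp and over. The 3′ UTR takes the widest part of the 3 short steps and coding exons the widest part of the longer regions.

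The *Vim* region of 47 bp lay next to a spliceosomal donor. *Vim* encodes vimentin, the intermediate filament protein of fibroblasts. The removed segment began at the first base of an annotated intron of 80 bases (chr2:13500136-13500215, plus) and ended after 47 of them, which left 33 intron bases in the joined sequence. It is shown from chr2:13500130-13500188 with its GT and AG ends in capitals.
Vim: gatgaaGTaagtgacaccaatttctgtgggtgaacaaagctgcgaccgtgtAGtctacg
It had 2 supporting reads, no slide and a width equal to its length.

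Among the coding regions of 3 to 9 bp, 23 of 23 had a length that was a multiple of 3 (100%, 85.7 to 100), with 18 of 3 bp, 3 of 6 bp and 2 of 9 bp. Among the regions of this step not wholly in coding sequence the count was 33 of 56 (58.9%, 45.9 to 70.8), and in the whole Dtt list 30% of lengths were multiples of 3. When only coding sequence of the listed gene was counted, it was 21 of 21. Of the 23, 22 fitted 1 junction and 7 lay at AGC repeats. In the 10 to 49 bp step, 6 of 11 coding regions had a length that was a multiple of 3 (*Myh9*, *Aebp1*, *Clta*, *Magi3*, *Ppp1r15a* and *Herpud1*), and *Xbp1*, *Camsap1*, *Slco3a1*, *Ube2s* and *Pdss2* did not. By the protein-coding transcripts of *Pdss2* itself, the *Pdss2* region lay in an intron. All 124 coding regions of 2 bp would shift the frame by their length. This count was chosen after the values were seen and was not tested.

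Among the 37 regions of 10 to 49 bp, *Xbp1* held 173 of 270 reads (64.1%, 58.2 to 69.6). The other 36 regions together had 97 reads, so *Xbp1* had 1.78 times their sum and 10.2 times the next region, *Poldip3* with 17. *Myh9*, the heavy chain of non-muscle myosin IIA, had 5 reads at 33 bp. Another 7 regions had 3 reads, namely *Lrba* (10 bp), *Bgn* (14 bp), *6820431F20Rik* (20 bp), *Ndufa3* (a subunit of respiratory complex I, 22 bp), *Aebp1* (a secreted matrix protein, 24 bp), *Trim30d* (35 bp) and *Clta* (clathrin light chain A, 45 bp). The remaining 27 had 2 reads.

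**Figure D4:**
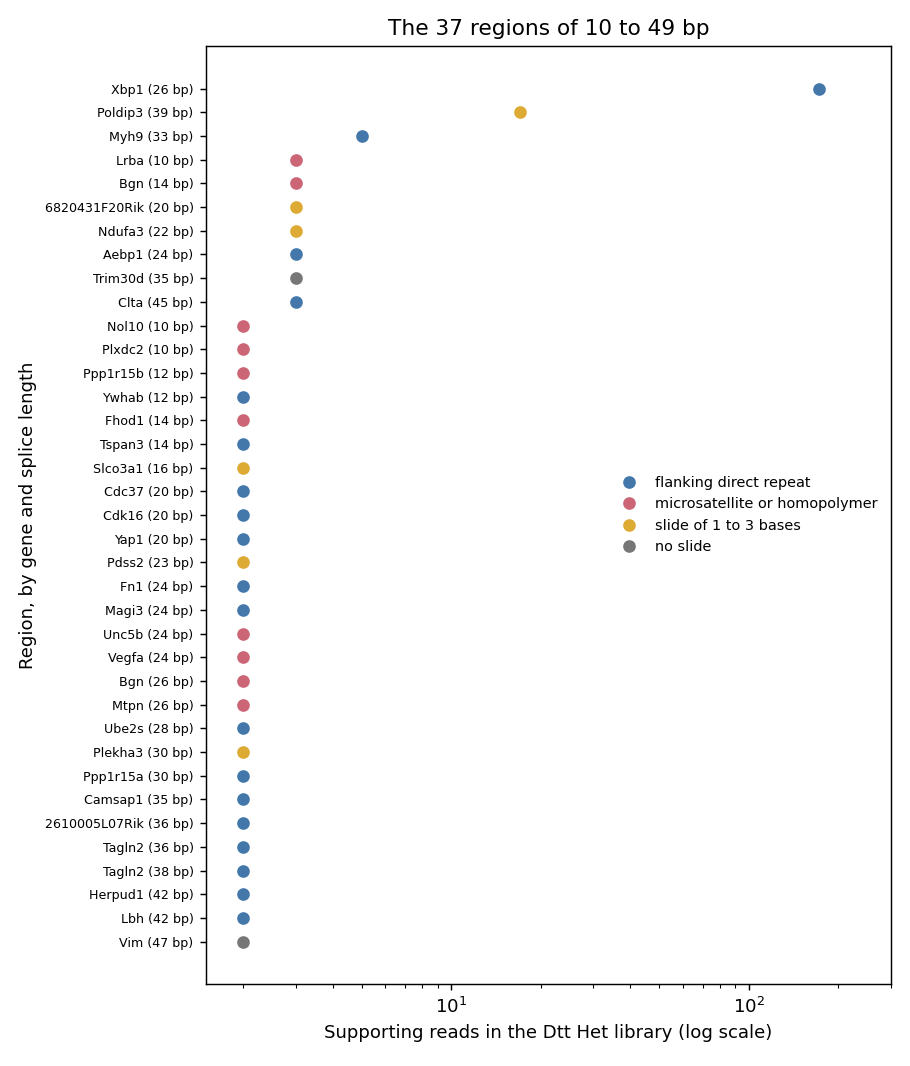
Supporting reads in the Dtt Het library on a log axis for each of the 37 regions of 10 to 49 bp, named by gene and splice length and coloured by how the gap slides on mm9. *Xbp1* has 173 reads, *Poldip3* 17, *Myh9* 5 and all others 2 or 3.

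The *Xbp1* region was the 1 region of the 37 with a placement that GENCODE vM1 lists as an intron. In the repeat at its ends it was like many of the others. Its gap could slide 6 bases, equal to its width minus length, which gave 7 placements with 1 joined sequence. The median slide of the other 36 was also 6. Of these 36, 33 fitted 1 junction, 18 had direct repeats at their ends, 15 had a slide of 4 to 8 and 10 lay wholly in coding sequence. The 18 include the *Tagln2* and *Aebp1* regions at short-unit repeats, so not all of them were alike to *Xbp1* between the copies. *Poldip3*, the next by reads, differed from *Xbp1* in each of these respects, with a slide of 3, a width 37 bp above its length, 28 possible joined sequences and a 3′ UTR location. *Myh9*, with 5 reads, shared with *Xbp1* the coding location, the direct repeat at its ends (copies of CCAAA) and boundaries that fit 1 junction. Unlike *Xbp1*, it had no placement listed as an intron and a length that is a multiple of 3.

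**Figure D5:**
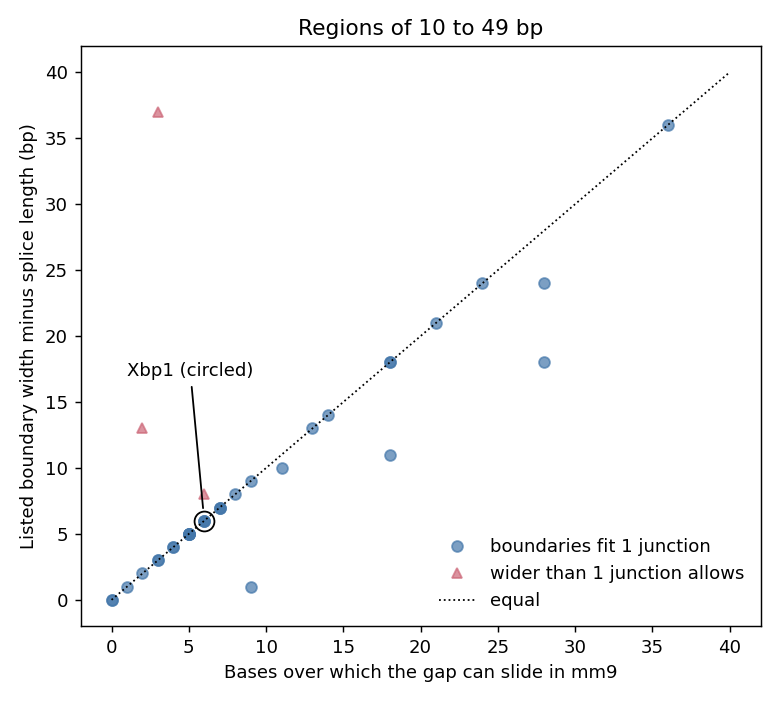
Listed boundary width minus splice length against the slide of the gap on mm9, both in bp, for the 37 regions of 10 to 49 bp; the dotted line marks equal values and *Xbp1* is circled. *Xbp1* lies on the line at 6 and the 3 triangles above the line are *Poldip3*, *Plekha3* and *Cdk16*.

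The lengths nearest to *Xbp1* held few reads. At 26 bp, *Mtpn* and *Bgn* had 2 reads each, and both lay in AC repeats of a 3′ UTR with a width 18 and 24 bp above the length. At 24 bp, *Aebp1* had 3 reads, and *Fn1*, *Unc5b* (a netrin receptor), *Vegfa* (a secreted angiogenic factor) and *Magi3* (a membrane scaffold protein) had 2 each. At 28 bp, *Ube2s*, a ubiquitin-conjugating enzyme, had 2.

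Both *Xbp1* cut sites have the letters CNGCAGC, where N is any base, with the cut after the first 3. This motif was searched at both ends of each gap, on the strand of the gene and at every placement within the boundaries. It stood at both ends of 1 placement in 6 of the 479 regions and in 0.237% of the Dtt list, and at either end in 0.908% of the list. In the 10 to 49 bp step, *Xbp1* had it at both ends and *Camsap1*, a microtubule minus-end protein, at the 3′ end, and no other region had it. The other 5 with both ends were 3 bp regions at AGC repeats, in *Jun* (an AP-1 transcription factor), *Mdh2* (mitochondrial malate dehydrogenase), *Phlda1*, *Xrcc3* (a DNA repair protein) and *Pprc1* (a transcriptional co-activator). Of them, 3 are shown with the repeat in capitals, from chr4:94717341-94717363 (*Jun*, minus), chr19:46138539-46138567 (*Pprc1*, plus) and chr10:110944031-110944053 (*Phlda1*, plus).
Jun: gccGCAGCAGCAGCAGCAGCcgc
Pprc1: gctGCAGCAGCAGCAGCAGCAGCAGCtca
Phlda1: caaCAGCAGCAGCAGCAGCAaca
In these repeats, a gap of 3 bp places the same letters at both ends by its length, and a match does not show that the site was cut.

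The genes with the most regions of 2 to 49 bp were *Thbs1* with 17 of its 19 listed regions, *Fn1* with 10 of 14, *Actg1* with 7 of 7 and *Bgn* with 7 of 9, followed by *Actb*, *Hspa5*, *Sparc*, *Tagln2* and *Vim* with 5 each. *Thbs1* encodes thrombospondin 1, a secreted matrix glycoprotein. Its 17 regions had 45 reads in all and at most 7 in 1 region, and 10 lay in the 3′ UTR and 7 in coding exons. Of the 17, 15 were wider than 1 junction allows, against 40.7% of the 479 and 48.8% of the 2 bp step, to which 14 of the 17 belong. *Fn1* had 23 reads over its 10 regions, with 9 wider ones, and *Actg1* (γ-actin) had 16 reads over 7, with 5 wider ones (both against the same shares). *Hspa5*, which encodes the ER chaperone BiP, had 5 regions of 2 bp with 2 reads each. Of these, 4 were in coding exons and wider than 1 junction allows (against the same 48.8% of the 2 bp step).

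Of 30 genes for ER stress and folding, 14 had a region of 2 to 49 bp, with 21 regions in all (4.38% of the 479), against 0.487% of the longer regions. Of the 21, 3 had 3 or more reads (against 22.3% of the 479), which were *Xbp1* with 173, *Pdia3* (a protein disulfide isomerase) with 5 and *Wfs1* (an ER membrane protein) with 4, with the *Pdia3* and *Wfs1* regions of 2 bp in 3′ UTR repeats. The others had 2 reads each and included *Herpud1* (a protein of ER-associated degradation, 42 bp), *Ppp1r15a* (a subunit of the eIF2α phosphatase, 30 bp) and 3 regions of *Pdia4*.

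Of 26 matrix genes, 16 had 59 regions (12.3%, against 1.46% of the longer regions), 45 of them wider than 1 junction allows (against 40.7% of the 479) and 16 with 3 or more reads (against 22.3%). These included 3 in *Sparc*, 6 in *Thbs1* and 1 each in *Col8a1*, *Fn1*, *Lox*, *Aebp1*, *Col1a2* and *Bgn*. Of 28 actin and cytoskeleton genes, 17 had 43 regions (8.98%, against 0.682%), with 12 at 3 or more reads (against 22.3%), among them *Acta2* (smooth muscle actin) with 9 and 8 reads, *Tagln2* with 7 and *Tagln* with 6. In a list of ribosomal proteins, taken as symbols that start with Rpl, Rps or Rplp and a digit, and 11 named translation factors, 14 genes had 19 regions (3.97%, against 1.27%), among them *Rps9* with 80 reads, *Eef1a1* with 4 and 3 and *Rpl10a* with 3. The expression level of these genes was not analysed here, so the counts of regions are not per transcript.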

How the data were processed

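RNA-Seq of *Ire1*α Het and KO MEFs comprised 4 libraries, 1 per genotype and experiment. The authors mapped reads with Bowtie to mm9 and UCSC known junctions, split unmapped reads at consecutive positions, mapped both parts without mismatches and joined them into regions. They removed regions near known junctions and those also seen in KO cells. The deposited counts are raw numbers of Het reads behind each region, at least 2. The deposited splice lengths and boundaries are in bp. The list holds part of the library and gives no depth, and it left 0 other columns with per-sample values unused.

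From the Dtt list, sequences were read from mm9 and locations from GENCODE vM1. Genes were matched by symbol for 470 regions, by position for 5 and not for 4, and the gene name of 1 region read as a date. Every placement of a gap within its boundaries was compared on mm9. In gaps simulated at random genome positions, 200 of 200 joined pairs and 0 of 200 single gaps were called wider than 1 junction. Both outcomes were fixed by how the gaps were built, so they check the code and not the calls on the listed regions.

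Shares were compared by two-sided Fisher's exact tests, adjusted over 8 tests by Benjamini-Hochberg at a threshold of 0.05, and intervals are 95% Wilson intervals for counting error only. The alternatives were other read limits, step borders, slide limits, annotation and 1 region per gene. Named regions had 10 or more reads, 10 to 49 bp with 3 or more reads or in coding exons, 24 to 28 bp, a listed gene with 3 or more reads, the motif at both ends, or were in the 5 genes with most regions, and the report gives others as examples chosen after their values were seen. Some regions that this rule names are not reported here. The regions and gene lists were chosen with earlier results of these data known. Python 3.11.15, scipy 1.17.1, pandas 2.3.3, pysam 0.24.0 and matplotlib 3.10.9 were used.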

Additional observations from a re-analysis of the deposited data

How the results depend on the processing

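No paired analysis was possible because each genotype had 1 library per experiment and the list gives values for the Het library only. Of 69 alternative values, 45 stayed on the same side of the threshold in the same direction, within the 95% interval of a share, or within the quartiles of a median. The quartiles are wide, and the medians of width minus length with 3 or more reads were 31.5, 5 and 5.5 bp against 13, 9 and 7 bp. For 3 or more reads, the odds ratio of 2 against 10 to 49 bp was 1.21 with a limit of 4 reads. That of 3 to 9 against 10 to 49 bp was 2.03 with 4 reads, 1.64 with 5 reads and 1.05 with steps of 3 to 4 and 5 to 49 bp. That of 2 to 49 against 50 bp and over was 1.37 with 4 reads and 2.78 with 5 reads, and only the last passed the exact test. That of 2 against 3 to 9 bp was 0.424 with 5 reads (exact adjusted p = 0.127). For UTR shares, the odds ratio of 2 against 10 to 49 bp was 0.968 with protein-coding transcripts of the listed gene and 12.9 among regions with 3 or more reads, which passed the exact test, and among the same regions that of 2 against 3 to 9 bp was 1.76 and that of 3 to 9 against 10 to 49 bp was 7.33 (exact adjusted p = 0.123). The higher UTR share of the 2 to 49 bp regions over the longer ones passed under each alternative run, with odds ratios from 4.71 to 12.6. The causes were not tested.

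The share wider than 1 junction was 60.3% at 2 bp and 31.6% at 3 to 9 bp with 3 or more reads, and 40.9% at 2 bp with 1 region per gene. The share at a repeat was 86.8%, 83.5% and 91.9% in the 3 steps with a slide of 2, and 30.6%, 50.6% and 56.8% with a slide of 6. With a slide of the full splice length it was 86.8% at 2 bp and 13.5% at 10 to 49 bp, so the order of the steps depended on this limit by its construction. With the leftmost placement only it was 29.8% at 2 bp, and with 3 or more reads it was 67.9%, 57.9% and 60% in the 3 steps. The share of *Xbp1* in the reads was 83.2% among regions of 20 to 32 bp. Of the 37 regions of 10 to 49 bp, 27 were at the listing minimum of 2 reads.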

Other observations

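Several short gaps of different length were listed at the same place. Of 458 loci, 15 held more than 1 region of 2 to 49 bp, 36 regions in all, and 14 of the 15 held more than 1 length. The *Tagln2* 3′ UTR had lengths of 2, 6, 36 and 38 bp within 1 AG-rich locus with 13 reads in all, and *Bgn* had 2, 14 and 26 bp with 9 reads in all, its 14 and 26 bp regions sharing both boundaries. *Epha4* (an ephrin receptor) and *Iars* (isoleucyl-tRNA synthetase) each had 3 regions of 2 and 4 bp, with 13 and 11 reads. *Poldip3* had 3 and 39 bp at 1 locus with 22 reads in all, and *Fn1* had 2 and 24 bp with 7. The *Xbp1* locus held the 26 bp region alone.

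The Tg list held 3 regions of 2 to 49 bp. *Xbp1* had 21 reads at the same boundaries as in the Dtt list, *Cyr61* (a secreted matrix protein) had 3 reads at 2 bp, and *Abcf2* had 2 reads at 2 bp. By the study's methods, the experiments differed in treatment, deletion, read length, sequencing depth and the distance over which split reads were joined, and these values were not tested against each other.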
